A study of Mus musculus with 8 samples.

Results

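Complement and coagulation proteins of plasma are made largely by the liver, and their genes were examined in RNA-seq libraries from livers of mice lacking hepatic pyruvate carboxylase. The set holds 42 genes listed by symbol, of 35275 genes in the count table. Of these, 16 belong to complement, 14 to coagulation and 12 to a group of inhibitors and fibrinolysis genes. That group also holds Vtn and Ahsg, which were placed in it as adhesive and other proteins. A row was present for 41 of them, and all 41 passed the filter on low counts. Klkb1, which encodes plasma prekallikrein, had no row and is not analysed here.

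Complement is a cascade of plasma proteins that tags and perforates microbes. Mannose-binding lectins and antibody start it, convertases built from C4, C2 and factor B cleave the central component C3, and C5 to C9 assemble into a membrane pore. Coagulation is a parallel cascade of serine proteases that ends with thrombin, which turns fibrinogen into fibrin. Antithrombin, the protein C system and other inhibitors restrain it, and plasmin, made from plasminogen, dissolves the clot. Hepatocytes secrete most of these proteins, several of which are also known to vary with inflammation and nutrition.

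Livers came from 4 Pcx L-/- mice and 4 WT mice, with 1 library per mouse. In the Pcx L-/- mice a floxed Pcx allele was deleted by Cre under the Albumin promoter, which is active in hepatocytes, so that the other cells of the liver keep the gene. The mice labelled WT were Pcx f/f littermates without deletion, so they carried the floxed allele as well. The labels give the strain as C57BL/6, and per the methods the allele came from C57BL/6NTac mice that were bred to Flpe deleter and then to Albumin-Cre mice. All mice were males aged 9 weeks, kept on chow and fasted for 24 h before the liver was taken, and no fed group was sequenced. Pcx, the deleted gene, was at 204 to 313 normalized FPKM in WT and 7.88 to 10.8 in Pcx L-/- liver, a log2 fold change of -4.80 ± 0.19 (SE, n = 4, adjusted p = 3.66e-07), and no library went against its label.

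Levels are given as normalized FPKM, the authors' FPKM divided by the library's TMM factor, which allows genes and mice to be compared on one scale. Values in mice are listed in the order of replicates 1 to 4 of each genotype. Fold changes are log2 ratios of Pcx L-/- over WT with their SE, and a gene was called higher or lower at an adjusted p under 0.05 in edgeR's quasi-likelihood test over 13168 genes. Of all genes tested, 14.1% were called higher, 13.5% were called lower and 3.58% were called lower by at least 2-fold. The 4 Pcx L-/- values all lay below the 4 WT values for 12.5% of genes and all above for 15.1%, and the median log2 fold change was -0.005. Without TMM factors, scaling by library size only moved this median to 0.279, and higher genes made up 81.8% of calls in place of 51.1%, so each change below is relative to the median of all genes. On that scale 29.7% of genes were called higher and 6.61% lower. Fits by limma on FPKM, given below, also carry no TMM factor.

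Libraries held 12016242 to 20023108 reads on genes, the fewest in WT replicate 4. Pcx L-/- replicate 1 stood apart on the first principal component, at 6.58. There WT mice lay at -43.66 to -28.95 and the other Pcx L-/- mice at 39.22 to 48.61. Mouse numbers fell in a lower and a higher series. WT replicates 3 and 4 and all Pcx L-/- mice but replicate 1 were in the higher series. Pcx L-/- replicate 1 was in the lower series, together with the remaining WT mice. Among Pcx L-/- mice, its deviation and the number series therefore cannot be told apart. WT replicate 4 stood apart on the second component, at -46.91 where the other WT mice lay at 5.7 to 25.28, and had the lowest TMM factor (0.8332). TMM factors were 0.8332 to 0.9423 in WT and 0.9697 to 1.1645 in Pcx L-/- libraries. They did not overlap, so the scaling itself differed by genotype. The 9 hepatocyte markers with a row, of 10 listed, were all detected and summed to 63779 to 73748 normalized FPKM in WT and 38368 to 58459 in Pcx L-/- liver. Alb was the largest part of these sums, at means of 36539 in WT and 23618 in Pcx L-/- liver without overlap. It was not called by edgeR (adjusted p = 0.0532, and 0.0276 with scaling by library size only). The genotypes overlapped in 5 of the 9 markers. Of the 9 tested hepatocyte markers, which include Ahsg, 4 were called lower and 0 higher (1 higher by limma on FPKM, 0 by DESeq2, 0 at an unadjusted p under 0.05), with a median log2 fold change of -0.77. For all genes these shares were 13.5% and 14.1% by edgeR. The part of these markers in the results below was not tested, and in bulk liver fewer hepatocytes and less RNA per hepatocyte cannot be told apart. No marker of Kupffer cells (0 of 10 called, 0 at an unadjusted p under 0.05), endothelial cells (0 of 10, with 3 lower at an unadjusted p under 0.05) or stellate cells (0 of 10, with 0 at an unadjusted p under 0.05) was called by edgeR, DESeq2 or limma. Their median log2 fold changes were 0.10, -0.11 and -0.06. Of cholangiocyte markers 1 of 7 was called lower by edgeR. Of platelet markers 0 of 4 tested were called (0 at an unadjusted p under 0.05), of red blood cell markers 0 of 5 (0 at an unadjusted p under 0.05), and the 1 neutrophil marker tested was higher at an unadjusted p under 0.05 but not called, except by limma on FPKM. Red blood cell markers summed to 340.3 to 1306 normalized FPKM in WT and 484 to 5505 in Pcx L-/- liver.

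Across the 41 genes, 31 were called lower, where 13.5% of all genes were, 1 was called higher, where 14.1% were, and 9 were not called. A fall of at least 2-fold was found for 9, against 3.58% of all genes. The median log2 fold change was -0.70, with 38 of 41 genes below 0 against 50.6% of all genes. The range ran from -1.88 for C9 to 0.92 for C4bp. In 32 genes all Pcx L-/- mice lay below all WT mice (12.5% of all genes), in 1 gene they lay above (15.1%), and in 8 the genotypes overlapped. With scaling by library size only, 23 genes were called lower (6.61% of all genes) and 3 higher (29.7%), with a median of -0.42. Pcx L-/- replicate 1 was the Pcx L-/- mouse nearest to the WT mean in 37 of 41 genes, including 30 of the 31 called lower. WT replicate 4 was the highest WT mouse in 31 of 41 genes. Without it 13 complement genes, 7 coagulation genes and 10 inhibitors were called lower, where 13% of all genes were. Of the 31 genes called lower, 21 remained past the threshold without each mouse in turn.

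**Figure D1:**
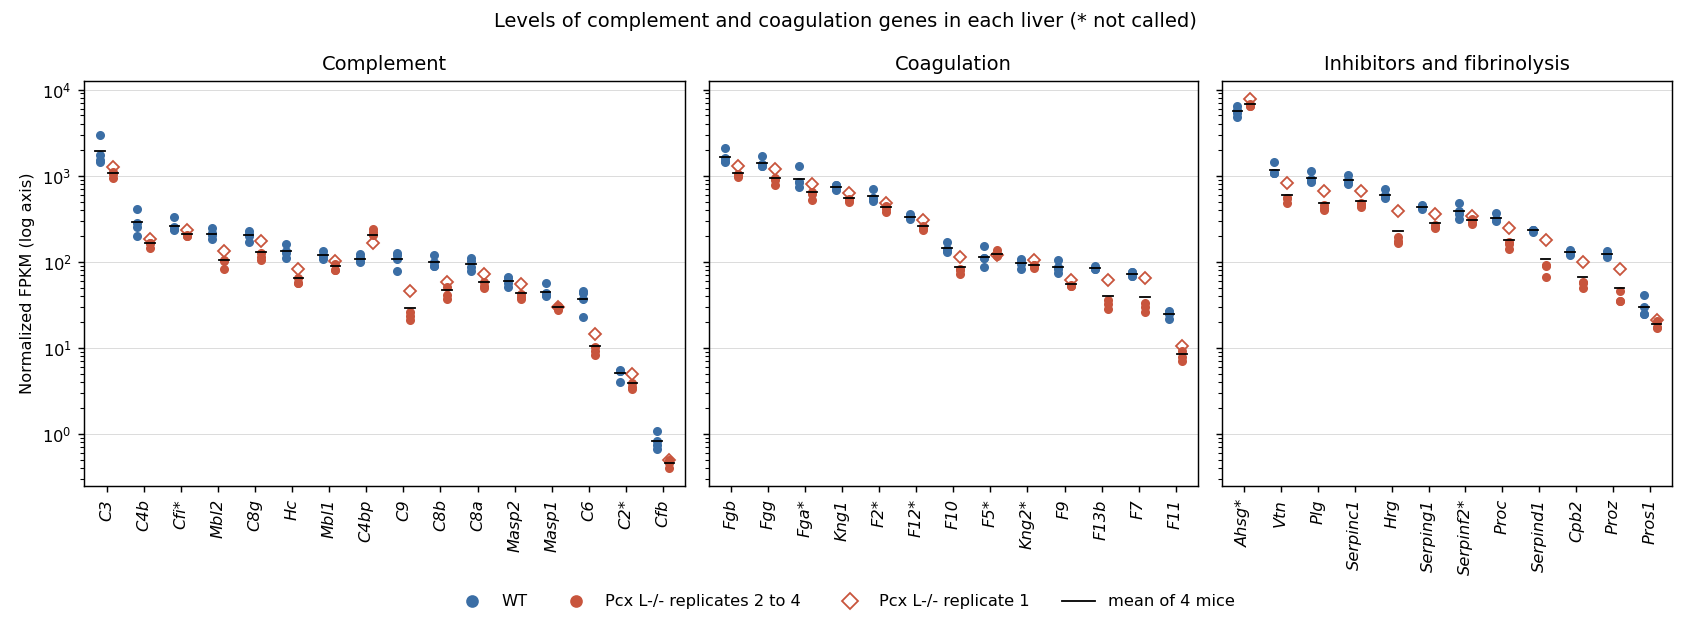
Normalized FPKM (log axis) of the 41 genes with a row in each of the 8 livers, ordered by WT mean within complement, coagulation and inhibitors. Points are mice (4 WT, 4 Pcx L-/-), the open diamond is Pcx L-/- replicate 1, black bars are means, and an asterisk marks the 9 genes not called. Most red points sit below the blue ones, and C4bp is the gene with all red points above.

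Taken as reads, the 41 genes made up 3.93% to 5.08% of all reads on genes in WT and 3.73% to 4.03% in Pcx L-/- libraries. Ahsg, the fetuin-A gene, held 0.66% to 0.799% of the reads in WT and 1.09% to 1.14% in Pcx L-/- libraries. The remaining genes together held 3.27% to 4.28% in WT and 2.59% to 2.93% in Pcx L-/- libraries, ranges that do not overlap.

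Complement genes were lower in 13 of 16 cases, higher in 1 and not called in 2, with a median log2 fold change of -0.76. Of all genes, 13.5% were called lower and 14.1% higher. A fall of at least 2-fold (3.58% of all genes) was found for C9, C6, C8b and Hc, all of the terminal pathway. The 16 genes summed to 3041 to 4997 normalized FPKM in WT and 2129.6 to 2617 in Pcx L-/- liver. The number called lower was 15 without Pcx L-/- replicate 1, but 8, 8 and 7 without Pcx L-/- replicates 2, 3 and 4. The share of all genes called lower moved the same way in these fits, to 17.8% without replicate 1 and to 7.86%, 8.28% and 7.11% without replicates 2, 3 and 4. With scaling by library size only the number called lower was 8, with 1 higher (6.61% and 29.7% of all genes).

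The terminal pathway builds the membrane attack pore, in which C5b recruits C6, C7 and C8 and then a ring of C9. All 6 of its genes in the set were called lower. C9 lies on chromosome 15 from 6445327 to 6498751 of GRCm38, on the plus strand. It was read at 121, 77.1, 109 and 125 normalized FPKM in WT and at 46.1, 23.6, 21.3 and 26.2 in Pcx L-/- liver, a log2 fold change of -1.88 ± 0.25 (SE, n = 4, adjusted p = 0.000835). The highest Pcx L-/- mouse, replicate 1, remained below the lowest WT mouse. C6, on chromosome 15 from 4727175 to 4814967, stood at 43.8, 22.6, 37.2 and 45.4 in WT and 14.6, 10.2, 8.31 and 9.19 in Pcx L-/- mice, a log2 fold change of -1.82 ± 0.23 (adjusted p = 0.00082). WT replicate 2 was the lowest control for C6 and for C9, and both genes still separated the genotypes.

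Hc encodes complement C5, which the convertase splits to start the pore. Its level was 128, 110.4, 133 and 159 in WT and 82.7, 57.4, 64.8 and 56.5 in Pcx L-/- mice, with a log2 fold change of -1.02 ± 0.17 (adjusted p = 0.00189). The genotypes did not overlap for Hc. C8 is a complex of an alpha, a beta and a gamma chain. C8a fell from 103, 77.5, 86.5 and 112 in WT to 72.9, 49.6, 52.2 and 58.4 in Pcx L-/- mice (log2 fold change -0.70 ± 0.16, adjusted p = 0.00972). C8b fell from 98.1, 90.4, 88.4 and 119.6 to 58.6, 36.6, 41.4 and 50.4 (log2 fold change -1.08 ± 0.16, adjusted p = 0.00138). C8a and C8b lie 11.1 kb apart on chromosome 4, and neither overlapped between genotypes. C8g, at 212, 201, 227 and 171 in WT and 174, 106, 114 and 128 in Pcx L-/- mice, changed by -0.64 ± 0.16 (log2, adjusted p = 0.0156). Here Pcx L-/- replicate 1 reached above WT replicate 4, and the adjusted p was 0.0502 to 0.0541 without WT replicate 3 or Pcx L-/- replicates 2, 3 or 4, and 0.0593 with scaling by library size only.

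Because FPKM is per length, the chains of C8 can be set against each other within a mouse. The ratio of C8b to C8a was 1.05 ± 0.0908 (SD, n = 4) in WT and 0.799 ± 0.0521 in Pcx L-/- liver, with every Pcx L-/- mouse (0.737 to 0.864) below every WT mouse (0.951 to 1.17). The exact two-sided permutation test gave p = 0.0286, the smallest that 4 mice against 4 allow, and 0.114 after adjustment over the 4 ratios compared. For C8g to C8a the ratio was 2.20 ± 0.518 in WT and 2.22 ± 0.108 in Pcx L-/- liver (exact permutation p = 0.914), and it spanned 1.53 to 2.63 in WT mice.

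The promoter of C9 is shown as that of the gene with the largest fall and the promoter of C4bp as that of the one gene called higher, each from 250 bases before to 50 bases after the RefSeq start on GRCm38.p6. C9 is at chr15:6445096-6445395 on the plus strand and C4bp at chr1:130661569-130661868 on the minus strand. Capitals mark matches to motif letters of liver factors that were searched on both strands, a C/EBP-type TTGCNNAA in C9 and the HNF1 letters GTTAAT in C4bp.
C9: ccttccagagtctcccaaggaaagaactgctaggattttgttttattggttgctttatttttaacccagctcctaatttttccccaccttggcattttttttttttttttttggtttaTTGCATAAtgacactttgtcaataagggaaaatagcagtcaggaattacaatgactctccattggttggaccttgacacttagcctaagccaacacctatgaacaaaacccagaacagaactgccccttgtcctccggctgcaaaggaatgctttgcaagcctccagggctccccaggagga
C4bp: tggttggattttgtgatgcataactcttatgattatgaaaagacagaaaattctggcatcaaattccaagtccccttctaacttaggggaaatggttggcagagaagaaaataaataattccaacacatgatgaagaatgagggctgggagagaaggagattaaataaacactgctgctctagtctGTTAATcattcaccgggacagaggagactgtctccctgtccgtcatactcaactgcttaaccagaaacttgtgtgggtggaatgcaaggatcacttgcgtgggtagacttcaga
The C/EBP letters begin 132 bases before the C9 start, and the HNF1 letters begin 64 bases before the C4bp start. RefSeq promoters were at hand for 33 of the 42 genes. The 33 were counted by gene, with a match in any promoter of the gene, and the background of 32851 by promoter. TTGCNNAA was present in 12 of these 33 (36.4%) and in 10.8% of 32851 promoters of 300 bases. GTTAAT was found in 10 of 33 (30.3%) against 7.1%, the STAT letters TTCNNNGAA in 7 of 33 (21.2%) against 8.3%, and the HNF4 letters CAAAGTCCA in 0 of 33 against 0.475%. A match describes the letters only, and binding was not measured.

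The lectin pathway begins when mannose-binding lectins, encoded by Mbl1 and Mbl2, attach to microbial sugars and switch on the proteases MASP-1 and MASP-2. All 4 genes were called lower. Mbl2 had the largest change, from 202, 245, 215 and 182 in WT to 135, 82.6, 102 and 105 in Pcx L-/- mice (log2 fold change -0.99 ± 0.16, adjusted p = 0.00173). Mbl1 was at 109, 119, 116 and 135 in WT and 103, 79.8, 79.8 and 93.5 in Pcx L-/- mice (log2 fold change -0.43 ± 0.12, adjusted p = 0.0212). No mouse overlapped for either lectin, although Pcx L-/- replicate 1 lay close to the WT range for Mbl1. Masp1 was at 43.1, 41.2, 39.5 and 56.1 in WT and 29.5, 31.0, 30.7 and 27.2 in Pcx L-/- mice, which lay close together and below all WT mice (log2 fold change -0.60 ± 0.13, adjusted p = 0.00629). Masp2 was at 65.8, 56.0, 64.4 and 51.3 against 55.8, 39.2, 42.1 and 36.9, and Pcx L-/- replicate 1 overlapped with WT replicate 4 (log2 fold change -0.45 ± 0.15, adjusted p = 0.0446). Tardbp, on the opposite strand, covers 54.9% of the exonic bases of Masp2, and since use of strand in counting is not given, their reads may not be told apart. With scaling by library size only, Masp1, Masp2 and Mbl1 were not called (adjusted p = 0.0677, 0.315 and 0.281). The call of Mbl1 was lost without Pcx L-/- replicates 2, 3 or 4 (adjusted p of 0.0507 to 0.0747), and that of Masp2 without each mouse except WT replicate 4 and Pcx L-/- replicate 1 (0.0605 to 0.142).

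C3, on which the pathways converge, was the most abundant complement transcript. Its level was 1516, 1447, 1734 and 2973 in WT and 1259.8, 1042, 1102 and 944 in Pcx L-/- mice, a log2 fold change of -0.82 ± 0.24 (adjusted p = 0.0289). WT replicate 4 was far above the other WT mice, and all Pcx L-/- mice lay below all WT mice. Without WT replicate 4 the log2 fold change of C3 was -0.53 (adjusted p = 0.0412). The call of C3 was lost without WT replicate 3 (adjusted p = 0.0535) or Pcx L-/- replicates 2, 3 or 4 (0.0741, 0.0712 and 0.0993). C4b, whose product forms the classical and lectin convertase with C2, was at 284, 199, 256 and 414 in WT and 185, 164, 166 and 144 in Pcx L-/- mice (log2 fold change -0.81 ± 0.21, adjusted p = 0.016). WT replicate 4 was again the highest mouse, and without it the log2 fold change of C4b was -0.58 (adjusted p = 0.0227). The call of C4b was lost when Pcx L-/- replicate 4 was left out (adjusted p = 0.0608). C4b and C4a are near-identical copies, so the division of reads between them is uncertain.

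Cfb, the factor B gene of the alternative convertase, was at 0.740, 0.835, 0.667 and 1.09 in WT and 0.505, 0.457, 0.499 and 0.403 in Pcx L-/- mice (log2 fold change -0.81 ± 0.24, adjusted p = 0.0276). These levels rest on 19 to 38 reads. The gene model Gm20547, which had 0 reads in each library, shares 79.5% of the exonic bases of Cfb and 42.8% of those of C2 on the same strand. The levels of both genes are therefore uncertain. Without WT replicates 2 or 4 or Pcx L-/- replicates 2, 3 or 4 Cfb was not called (adjusted p of 0.0526 to 0.0875), nor with scaling by library size only (0.123). C2, at 4.05 to 5.46 in WT and 3.34 to 5 in Pcx L-/- mice, was not called (log2 fold change -0.37 ± 0.16, adjusted p = 0.106). It passed the threshold without WT replicate 4 (adjusted p = 0.0447) or Pcx L-/- replicate 1 (0.019).

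C4bp, the alpha chain of the C4b-binding protein that breaks down the classical convertase, was the only gene of the set called higher. It was at 99.3, 113, 102 and 122 in WT and 163, 205, 220.4 and 239.8 in Pcx L-/- mice, or 1.90-fold of WT (log2 fold change 0.92 ± 0.15, adjusted p = 0.00186). Every Pcx L-/- mouse was above every WT mouse, and the log2 fold change was 0.85 to 1.22 over all alternatives. Cfi encodes factor I, the protease that C4b-binding protein assists. It was at 239.7, 236, 249.9 and 327 in WT and 231, 198, 201 and 207 in Pcx L-/- mice, which did not overlap but did not pass the test (log2 fold change -0.33 ± 0.14, adjusted p = 0.105). Cfi passed the threshold when Pcx L-/- replicate 1 was left out (adjusted p = 0.0432).

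**Figure D2:**
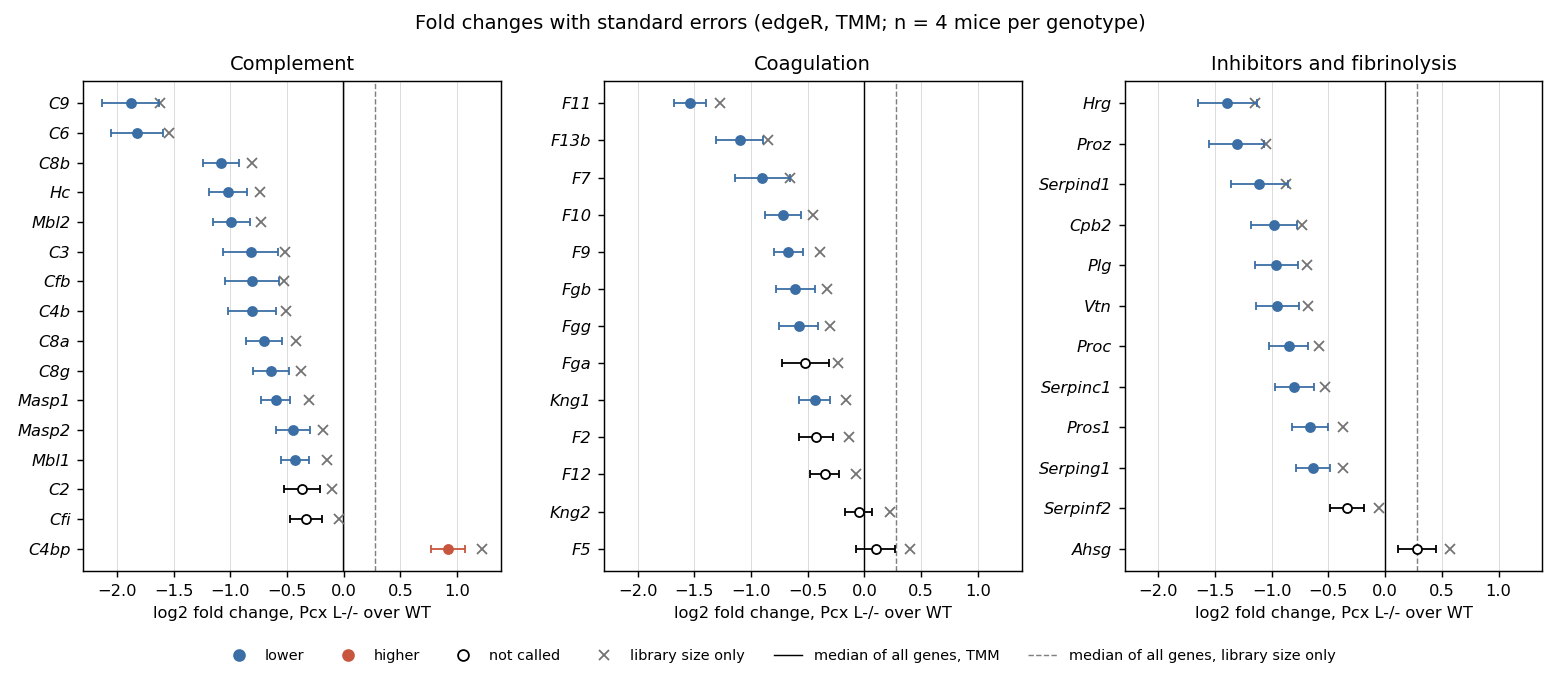
Log2 fold change of Pcx L-/- over WT with its standard error for the 41 genes (edgeR with TMM factors, 4 mice per genotype), sorted within each group. Filled points passed the test, crosses are values with scaling by library size only, and vertical lines are the medians of all genes on each scale. C9, C6 and F11 lie farthest to the left and C4bp farthest to the right, and Kng2 lies below 0 with TMM but above 0 with scaling by library size only.

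Coagulation genes were lower in 8 of the 13 with a row, and 5 were not called, with a median log2 fold change of -0.58. Of all genes, 13.5% were called lower and 14.1% higher. The largest falls were those of F11 and F13b, the only members of this group lower by at least 2-fold (3.58% of all genes). None was called higher by edgeR (0 at an unadjusted p under 0.05) or by DESeq2, and limma on FPKM called 1, F5. The 13 genes summed to 5761 to 7642 normalized FPKM in WT and 3929 to 5224 in Pcx L-/- liver. The number called lower was 11 without Pcx L-/- replicate 1, where 17.8% of all genes were. It was 4 without Pcx L-/- replicates 2, 3 or 4, where 7.11% to 8.28% were. With scaling by library size only it was 6, with 1 higher (6.61% and 29.7% of all genes).

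Fibrinogen is a dimer of 3 chains whose genes Fgg, Fga and Fgb lie side by side on chromosome 3, with gaps of 11 and 6.5 kb. They were the most abundant transcripts of the group. Fgb, the beta chain, was at 1451, 1599, 1468 and 2082 in WT and 1287, 1024, 1032 and 977 in Pcx L-/- mice (log2 fold change -0.61 ± 0.17, adjusted p = 0.0212). Fgg, the gamma chain, was at 1301, 1374, 1289 and 1706 in WT and 1191, 939, 884 and 779 in Pcx L-/- mice (log2 fold change -0.58 ± 0.17, adjusted p = 0.0279). For both chains each Pcx L-/- mouse lay below each WT mouse. Fga, the alpha chain, was at 843, 731, 834 and 1288 in WT and 799, 639, 619 and 528 in Pcx L-/- mice, and Pcx L-/- replicate 1 lay above WT replicate 2 (log2 fold change -0.52 ± 0.21, adjusted p = 0.0875). Fga was therefore not called, although its change differed little in size from those of the other chains. Fga passed without Pcx L-/- replicate 1 (adjusted p = 0.0214) and in DESeq2 (0.0334). The calls of Fgb and Fgg were lost without Pcx L-/- replicates 2, 3 or 4 (adjusted p of 0.064 to 0.0816 and 0.0712 to 0.105), and that of Fgg also without WT replicate 4 (0.052) and with scaling by library size only (0.0721).

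The ratio of Fgb to Fga was 1.82 ± 0.252 (SD, n = 4) in WT and 1.68 ± 0.116 in Pcx L-/- liver, and the exact two-sided permutation test gave p = 0.4. That of Fgg to Fga was 1.57 ± 0.229 in WT and 1.47 ± 0.0277 in Pcx L-/- liver (exact permutation p = 0.514). Both are 0.686 after adjustment over the 4 ratios. For Fgg to Fga each Pcx L-/- mouse lay within the WT range, and for Fgb to Fga Pcx L-/- replicates 1 and 2, at 1.61 and 1.6, lay just below the lowest WT mouse at 1.62. In every mouse Fgb was the highest of the 3 chains and Fga the lowest.

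**Figure D3:**
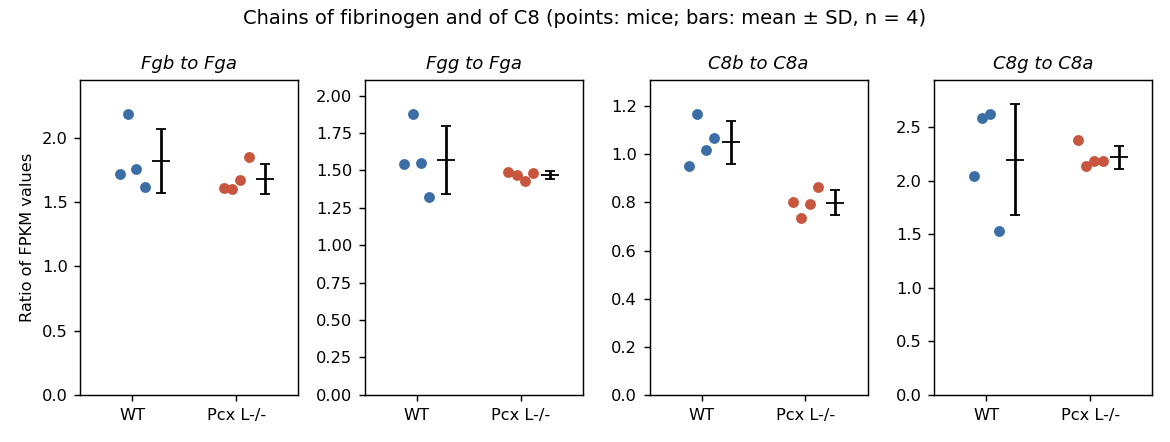
Ratios of FPKM between chains of fibrinogen (Fgb and Fgg to Fga) and of C8 (C8b and C8g to C8a) in 4 WT and 4 Pcx L-/- mice; points are mice and bars are mean ± SD, with each axis starting at 0. The C8b to C8a ratios of the Pcx L-/- mice (0.737 to 0.864) lie below those of WT (0.951 to 1.17), and the other ratios overlap.

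The promoters of the fibrinogen genes are shown because their products are made in one complex. They are at chr3:83025903-83026202 on the plus strand for Fga, chr3:83049814-83050113 on the minus strand for Fgb and chr3:83007474-83007773 on the plus strand for Fgg (RefSeq, GRCm38.p6). Capitals mark, in this order, the STAT letters, the C/EBP letters and the HNF1 letters on either strand.
Fga: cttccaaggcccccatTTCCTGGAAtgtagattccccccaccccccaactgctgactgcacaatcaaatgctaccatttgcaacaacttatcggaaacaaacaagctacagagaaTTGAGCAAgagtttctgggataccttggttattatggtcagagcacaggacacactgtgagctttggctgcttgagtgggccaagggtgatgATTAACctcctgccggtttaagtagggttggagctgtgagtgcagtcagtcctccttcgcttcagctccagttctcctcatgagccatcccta
Fgb: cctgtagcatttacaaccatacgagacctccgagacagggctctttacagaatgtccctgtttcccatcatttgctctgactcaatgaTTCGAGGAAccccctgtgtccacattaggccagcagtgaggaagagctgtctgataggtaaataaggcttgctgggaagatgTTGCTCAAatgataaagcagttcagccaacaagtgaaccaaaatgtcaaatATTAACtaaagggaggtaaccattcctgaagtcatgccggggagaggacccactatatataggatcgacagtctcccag
Fgg: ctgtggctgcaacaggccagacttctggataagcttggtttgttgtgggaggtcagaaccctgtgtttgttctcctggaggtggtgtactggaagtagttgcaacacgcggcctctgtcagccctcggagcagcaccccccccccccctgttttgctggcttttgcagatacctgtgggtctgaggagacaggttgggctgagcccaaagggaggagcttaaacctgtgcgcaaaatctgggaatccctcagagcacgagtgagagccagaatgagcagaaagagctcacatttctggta
Fga and Fgb each held 1 match to all 3 motifs, with the HNF1 letters beginning 43 and 29 bases before the start. The Fgg window held none of these letters, and from this window nothing follows about the factors.

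Factors VII, IX, X and prothrombin are proteases whose vitamin K-dependent gamma-carboxylation lets them bind membranes. F7, which starts the extrinsic pathway, was at 75.2, 68.7, 68.6 and 77.0 in WT and 65.2, 26.3, 30.0 and 33.3 in Pcx L-/- mice (log2 fold change -0.90 ± 0.24, adjusted p = 0.0189). Pcx L-/- replicate 1 lay just below the WT mice and the other 3 far below, and without any one of these 3 the adjusted p was 0.0538 to 0.0643. F10, the factor X gene, fell from 129, 138, 140.2 and 169.7 in WT to 115, 72.2, 80.2 and 82.6 in Pcx L-/- mice (log2 fold change -0.72 ± 0.16, adjusted p = 0.0085). F9, the gene for the factor lacking in haemophilia B, was at 74.4, 81.5, 87.5 and 106 in WT and 60.6, 52.1, 52.0 and 54.3 in Pcx L-/- mice (log2 fold change -0.67 ± 0.13, adjusted p = 0.00452). The genotypes did not overlap for either gene. F2, encoding prothrombin, was at 506 to 704 in WT and 382 to 477 in Pcx L-/- mice, which lay below all WT mice without passing the test (log2 fold change -0.43 ± 0.15, adjusted p = 0.0569). It passed in DESeq2 (adjusted p = 0.00934) and without Pcx L-/- replicate 1 (0.0161).

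The contact system comprises factors XI and XII, prekallikrein and the kininogens. F11, on chromosome 8 from 45241174 to 45262031, had the smallest adjusted p of the set. It was at 26.4, 26.9, 21.6 and 25.0 in WT and 10.4, 7.03, 7.85 and 9.11 in Pcx L-/- mice (log2 fold change -1.54 ± 0.14, adjusted p = 0.000159). F11 in Pcx L-/- liver was 65.5% lower than in WT by the means, and Pcx L-/- replicate 1 was the highest of its group. F12, the factor XII gene, was at 313 to 363 in WT and 236 to 308 in Pcx L-/- mice, which did not overlap (log2 fold change -0.35 ± 0.13, adjusted p = 0.0647). Its adjusted p was 0.0124 in DESeq2 and 0.00795 without Pcx L-/- replicate 1. Kng1, one of a pair of kininogen genes of the mouse, was at 708, 786, 685 and 786 in WT and 624, 492, 540.2 and 525 in Pcx L-/- mice (log2 fold change -0.44 ± 0.14, adjusted p = 0.0334). This call was lost with scaling by library size only (adjusted p = 0.255) and without each mouse except WT replicate 4 and Pcx L-/- replicate 1 (0.0587 to 0.109). Kng2, its paralog, was at 83.2 to 108 in WT and 84.6 to 104 in Pcx L-/- mice, with a log2 fold change of -0.05 ± 0.12 that turned to 0.23 with scaling by library size only (adjusted p = 0.8 and 0.135). Kng1 and Kng2 share sequence, so the split of their reads is uncertain.

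Klkb1 lies 4.7 kb from F11. The gene model Gm45753 covers 43.2% of the exonic bases of Klkb1 on the same strand, and it was looked at after the values were seen. It was at 5.42 to 6.36 in WT and 1.61 to 3.96 in Pcx L-/- mice (log2 fold change -1.36 ± 0.26, adjusted p = 0.00405), and its reads cannot be assigned to Klkb1.

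F13b, the carrier subunit of the factor that cross-links fibrin, was at 82.7, 89.6, 82.7 and 84.8 in WT and 61.8, 28.4, 35.9 and 32.6 in Pcx L-/- mice (log2 fold change -1.10 ± 0.21, adjusted p = 0.00431). The WT mice lay within a narrow range, and Pcx L-/- replicate 1 lay between them and the other Pcx L-/- mice. F5, the cofactor of factor Xa, was at 86.7 to 151 in WT and 117 to 137 in Pcx L-/- mice, all of which lay within the WT range. Its log2 fold change was 0.10 ± 0.17 (adjusted p = 0.699), with -0.01 without WT replicate 2 and 0.40 with scaling by library size only, where it was called (adjusted p = 0.0481).

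In the group of inhibitors and fibrinolysis genes, which includes Vtn and Ahsg, 10 of 12 were called lower and 2 were not called. The median log2 fold change was -0.90. Of all genes, 13.5% were called lower and 14.1% higher. Hrg, Proz and Serpind1 were lower by at least 2-fold (3.58% of all genes). None was called higher by edgeR (0 at an unadjusted p under 0.05) or DESeq2, and limma on FPKM called 1, Ahsg. With scaling by library size only 9 were called lower and 1 higher (6.61% and 29.7% of all genes). In the 10 lower genes all Pcx L-/- mice lay below all WT mice (12.5% of all genes). The number called lower was 10 or 11 without each mouse in turn, fits in which 7.11% to 17.8% of all genes were called lower. As a sum the group overlapped, at 9594 to 12466 normalized FPKM in WT and 8699.7 to 11516 in Pcx L-/- liver, with Ahsg as its largest member.

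Serpins trap proteases in a covalent complex. Serpinc1, the antithrombin gene, was at 807, 822, 890.4 and 1030.1 in WT and 658, 428, 460.4 and 486 in Pcx L-/- mice (log2 fold change -0.80 ± 0.17, adjusted p = 0.00648). Zbtb37, on the opposite strand, covers 34.4% of the exonic bases of Serpinc1, and was itself at 1.41 ± 0.324 in WT. Serpind1, the heparin cofactor II gene, was at 222, 233, 232 and 235 in WT and 179.8, 67.4, 91.4 and 88.4 in Pcx L-/- mice (log2 fold change -1.11 ± 0.25, adjusted p = 0.00921). Relative to their mean, its WT values were the closest of the set to each other, and the Pcx L-/- mice spread from 67.4 to 179.8. Serping1, encoding the C1 inhibitor that acts on complement and on the contact system, was at 453, 415, 443 and 429 in WT and 358, 245, 264 and 249.9 in Pcx L-/- mice (log2 fold change -0.64 ± 0.15, adjusted p = 0.00972).

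Activated protein C, with its cofactor protein S, inactivates factors Va and VIIIa. Proc, the protein C gene, was at 313, 299, 308 and 364 in WT and 244, 142, 159.5 and 168 in Pcx L-/- mice (log2 fold change -0.85 ± 0.17, adjusted p = 0.00542). Pros1, the protein S gene, was at 29.8, 24.5, 24.9 and 41.1 in WT and 20.8, 20.6, 17 and 17.6 in Pcx L-/- mice (log2 fold change -0.66 ± 0.16, adjusted p = 0.0134), and was not called with scaling by library size only (0.0607). For both genes the highest Pcx L-/- mouse lay below the lowest WT mouse. Proz encodes protein Z, a cofactor for inhibition of factor Xa. It was at 114, 119.7, 123 and 133 in WT and 81.3, 35.3, 46.0 and 35.3 in Pcx L-/- mice, 59.6% lower by the means (log2 fold change -1.31 ± 0.24, adjusted p = 0.00367).

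Fibrinolysis genes encode plasminogen and proteins that limit or modulate it. Plg was at 918, 847, 869 and 1144 in WT and 657, 394, 462 and 426 in Pcx L-/- mice (log2 fold change -0.96 ± 0.19, adjusted p = 0.00492). Slc22a3, which was called higher in Pcx L-/- liver (log2 fold change 1.64 ± 0.22, adjusted p = 0.000971), covers 11.3% of the exonic bases of Plg on the opposite strand. Hrg, the histidine-rich glycoprotein that binds plasminogen and heparin, was at 692, 553, 596 and 558 in WT and 387, 193, 172 and 165 in Pcx L-/- mice (log2 fold change -1.39 ± 0.26, adjusted p = 0.00373). It was the most reduced gene of this group, with Pcx L-/- replicate 1 well above the others. Cpb2, whose product TAFI slows clot lysis, was at 138, 133, 125 and 120.3 in WT and 99.6, 49.4, 57.8 and 56.0 in Pcx L-/- mice (log2 fold change -0.98 ± 0.20, adjusted p = 0.00538). Serpinf2, the antiplasmin gene, was at 317 to 477 in WT and 278 to 341 in Pcx L-/- mice, which overlapped (log2 fold change -0.34 ± 0.15, adjusted p = 0.123). It passed without Pcx L-/- replicate 1 (adjusted p = 0.0493) and in the mice of the higher series of mouse numbers alone (0.0253), a fit chosen after seeing the data. Plasminogen and an inhibitor of its action, Cpb2, were both among the genes called lower.

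Vtn encodes vitronectin, an adhesive protein that also binds the terminal complement complex. It was at 1079, 1077, 1060.4 and 1430.5 in WT and 824, 478, 547 and 557 in Pcx L-/- mice (log2 fold change -0.95 ± 0.19, adjusted p = 0.00554), and the genotypes did not overlap. Ahsg, whose product fetuin-A is an abundant plasma glycoprotein, was the most abundant transcript of the set. It was at 5369, 4754, 5801 and 6505 in WT and 7665, 6369, 6413 and 6823 in Pcx L-/- mice, with 2 Pcx L-/- mice within the WT range (log2 fold change 0.28 ± 0.17, adjusted p = 0.252). In the authors' FPKM, which carry no TMM factor, it spanned 4479.8 to 5420.2 in WT and 7408 to 7757 in Pcx L-/- mice without overlap. Ahsg was called higher with scaling by library size only (log2 fold change 0.57, adjusted p = 0.00234), so its call depends on the scale.

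**Figure D4:**
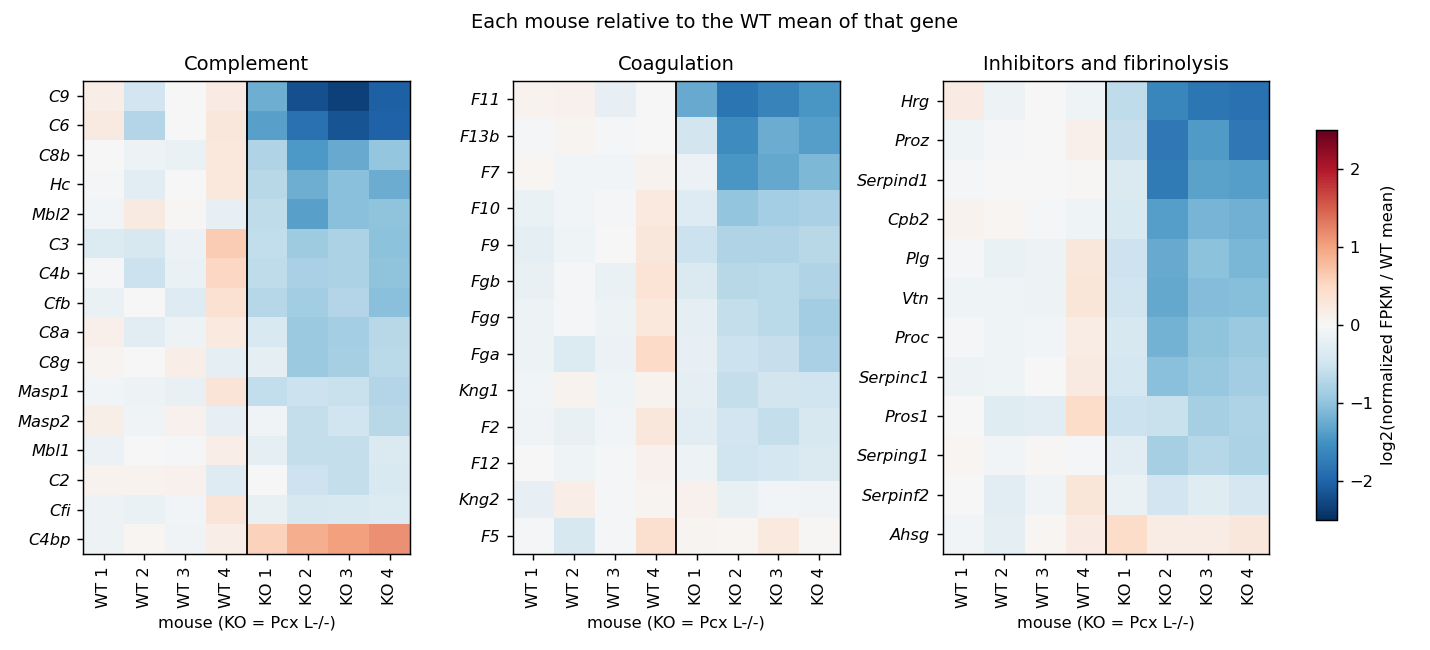
Each mouse's normalized FPKM relative to the WT mean of the same gene, as a log2 ratio (color), for the 41 genes in rows and 8 mice in columns (KO is Pcx L-/-). The columns of Pcx L-/- replicates 2 to 4 are the darkest, and replicate 1 is nearest to WT in 37 of 41 genes.

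Genes of the set that lie within 200 kb of each other did not all change alike. On chromosome 16 Ahsg, Hrg, Kng2 and Kng1 follow each other with gaps of 51.6, 24.2 and 28.4 kb. Their log2 fold changes were 0.28, -1.39, -0.05 and -0.44, of which those of Hrg and Kng1 passed the test. Kng2 changed sign with scaling by library size only. On chromosome 8 F7, F10 and Proz lie 1.5 and 4.2 kb apart, and all 3 were called lower, at -0.90, -0.72 and -1.31. C4b, Cfb and C2 lie on chromosome 17 with gaps of 112.5 and 0.1 kb, at -0.81, -0.81 and -0.37. Differences between these neighbouring genes were not tested. The neighbouring chains of C8 and of fibrinogen were compared as ratios above.

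Further genes of the pathways outside the set were drawn from 2 lists. Of 26 other complement genes 24 were tested, and 9 were called lower and 0 higher (0 at an unadjusted p under 0.05, 0 by DESeq2 and 1 by limma on FPKM), with a median log2 fold change of -0.23. Beside this, 13.5% of all genes were called lower and 14.1% higher. With scaling by library size only, the median of the list was 0.06, with 11 of 24 genes below 0. C1s1 and C1ra, the proteases of the C1 complex, had log2 fold changes of -1.09 ± 0.18 and -0.98 ± 0.18 (adjusted p = 0.00201 and 0.00349). C1qa, C1qb and C1qc, which encode the other chains of that complex, were not called (log2 fold changes of 0.11, 0.18 and 0.11). Clu, encoding clusterin, changed by -0.81 ± 0.16 on the log2 scale (adjusted p = 0.00426). Cpn2, C4a and C1rl had log2 fold changes of -0.82, -0.95 and -0.71. Of the list, 4 genes were under 1 normalized FPKM in every library, among them Fcnb, which was at 0 in each.

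Of 28 other coagulation genes 24 were tested, 7 were called lower and 1 higher (13.5% and 14.1% of all genes), with a median log2 fold change of -0.34. Hgfac, the HGF activator gene, Tmprss6, the matriptase-2 gene, and Pzp, an alpha-2-macroglobulin relative, had log2 fold changes of -0.98 ± 0.14, -0.85 ± 0.15 and -0.94 ± 0.18 (adjusted p = 0.00104, 0.00254 and 0.0044). Ggcx, the gamma-carboxylase that modifies the vitamin K-dependent factors, had a log2 fold change of -0.63 ± 0.18 (adjusted p = 0.0264), with the genotypes overlapping. Serpine2, F2r and Fetub had log2 fold changes of -1.6, -0.58 and -0.48. Serpine2 was low, with a mean of 1.18 normalized FPKM in WT and 0.393 in Pcx L-/- liver and as few as 13 reads. With scaling by library size only, F2r, Fetub and Ggcx were not called (adjusted p = 0.232, 0.216 and 0.109). Mcfd2, whose product helps carry factors V and VIII out of the endoplasmic reticulum, was the one gene called higher (log2 fold change 0.55 ± 0.11, adjusted p = 0.00598). Of the 2 lists, 4 genes were called higher and 12 lower with scaling by library size only (29.7% and 6.61% of all genes), in place of 1 and 16.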

How the data were processed

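The authors isolated total RNA from 4 Pcx L-/- and 4 WT livers, and a sequencing service built and ran the libraries. Per the submitters' processing notes and the methods, reads were aligned to mm10 with STAR 2.5 and HTSeq 0.6.1 was among the tools. Raw counts of reads on each Ensembl gene were deposited by the authors. The FPKM table they deposited is the count over 1 length per gene and the library total, which held for 100% of 142384 nonzero entries to a relative tolerance of 1e-06. For the annotation release and the use of strand, the sources used here give no information. Depth was 12016242 to 20023108 reads on genes a library, which leaves low genes imprecise.

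Symbols were matched to identifiers through GENCODE M21. Genotypes were compared by the quasi-likelihood F test of edgeR 4.0.16 (R 4.3.3) with TMM factors over 13168 genes that passed filterByExpr (minimum count 10, minimum total 15), with Benjamini-Hochberg adjustment. Standard errors are approximate and were derived from the F statistic. Single ratios were compared by exact permutation tests. Alternatives were other scalings, no filter, DESeq2 1.42.0, limma 3.58.1 on log2(FPKM + 1) and log2(FPKM + 0.1), the series of mouse numbers as a covariate, a replicate block, each mouse left out in turn, and, chosen after seeing the data, only the mice of the higher series of numbers. Each library came from a separate mouse. Members and lists were chosen with earlier results of these data known. Genes past the threshold and the 3 most abundant of each group are given by mouse, and others by range. From the further complement and coagulation lists the genes past the threshold are named, at most 8 by p, except for some that are not reported here. Marker lists of liver and blood cells are given by counts, and Alb is named as the largest part of the hepatocyte sums. When tested on simulated counts of this comparison (13225 genes), edgeR found 96% of 200 genes given a known change and made 9 false calls. The changes given were all of at least 2-fold. Every gene had the same dispersion, and no mouse deviated and no scale shifted between genotypes. These rates therefore do not cover the genes called with smaller changes, nor the deviating mice of the real data.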

Additional observations from a re-analysis of the deposited data

Results flagged for a closer look

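In 6 of 82 groups of 4 mice, 1 mouse lay far from the others by Dixon's test (gap to the nearest mouse over the range, above the 95% critical value), a count to be read against about 1 in 20 groups that chance gives. In Pcx L-/- liver, replicate 1 was the highest mouse for Hrg (387 normalized FPKM against 165 to 193 in the others, gap over range 0.876), for Cpb2 (99.6 against 49.4 to 57.8, 0.834) and for Serping1 (358 against 245 to 264, 0.832). All 3 genes were called lower, and remained so without this mouse. In WT liver, replicate 4 was the highest mouse for Vtn (1430.5 against 1060.4 to 1079, 0.949) and for Cfi (327 against 236 to 249.9, 0.842), and the lowest for C2 (4.05 against 5.36 to 5.46, 0.929). Vtn was called lower with and without this mouse, Cfi in neither case, and C2 passed the threshold without it but not with it.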

How the results depend on the processing

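Of the 31 genes called lower, 19 kept the call in all alternatives, and C4bp was called higher in each. With DESeq2 size factors 41 of 41 genes kept their side of the threshold and direction, and with the series of mouse numbers as a covariate likewise 41. With scaling by library size only, complement genes called lower came to 8 in place of 13, and 1 coagulation gene and 1 inhibitor were called higher in place of 0. For limma on log2(FPKM + 1) and on log2(FPKM + 0.1) these numbers were 7, 1 and 1, with 5 coagulation genes lower in place of 8, while 6.25% and 6.24% of all genes were called lower and 29% and 28.7% higher. The cause was not tested beyond the shift of the median of all genes. Of the other complement and coagulation genes 4 were called higher in each of these 3 settings, and 3 in the mice of the higher number series, in place of 1. Mice of the same replicate number did not deviate together (correlations of 0.0958, -0.127, -0.0938 and -0.0677). Replicate numbers differ from mouse numbers, and the labels give no pairing of mice across genotypes. With a replicate block 5 coagulation genes were called lower in place of 8 (11.3% of all genes).

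Leaving out each mouse in turn gave 7 to 15 complement genes and 4 to 11 coagulation genes called lower, while 7.11% to 17.8% of all genes were. The highest numbers came without Pcx L-/- replicate 1. Of the other complement and coagulation genes 1 to 3 were called higher, and of all genes 8.63% to 16.7%. The log2 fold change of F5 then spanned -0.01 to 0.26, that of Kng2 -0.12 to 0.01, and the log2 difference in C8g to C8a -0.116 to 0.143. With the higher number series only, F5 was at -0.07. Kng2 was at 0.23 with scaling by library size only and with limma on log2(FPKM + 1), and at 0.24 on log2(FPKM + 0.1). Low reads limit Cfb (19 to 38) and C2 (107 to 265), and the ratios rest on 4 mice a genotype, where 3 against 4 cannot go below p = 0.0571 in the exact permutation test.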

Other observations

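Acute phase genes, which the liver raises or lowers with inflammation, were examined as a list of 18 genes outside the complement and coagulation set. In Pcx L-/- liver 11 were called lower and 2 higher by edgeR, with a median log2 fold change of -0.66. The shares over all genes were 13.5% lower and 14.1% higher. With scaling by library size only, 8 were called lower and 3 higher (6.61% and 29.7% of all genes). Apcs, encoding serum amyloid P component, had a log2 fold change of 2.78 ± 0.23 (adjusted p = 0.000128), from 44 ± 13.9 normalized FPKM (SD, n = 4) in WT to 303 ± 71.3 in Pcx L-/- liver. Lcn2, encoding lipocalin 2, was the other gene called higher (log2 fold change 1.67 ± 0.38, adjusted p = 0.00873). Serpina3n, Saa4 and Crp, the last encoding C-reactive protein, had log2 fold changes of -1.26 ± 0.21, -1.8 ± 0.35 and -0.91 ± 0.18 (adjusted p = 0.00234, 0.00453 and 0.00452). The genotypes did not overlap for these 5 genes.

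Of 7 genes of interleukin-6 signaling 2 were called lower and 0 higher by edgeR (0 higher at an unadjusted p under 0.05, and 0 by DESeq2 and by limma on FPKM). Over all genes edgeR called 13.5% lower and 14.1% higher. Il6ra, the receptor gene, had a log2 fold change of -0.99 ± 0.15 (adjusted p = 0.00136). Cebpd, a transcription factor gene, changed by -0.47 ± 0.15 (adjusted p = 0.0425), with genotypes overlapping, and was not called with scaling by library size only (adjusted p = 0.408).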
